A study of Mus musculus with 8 samples.

Results

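The genes described here are the transcription factor NRF2 (gene symbol Nfe2l2), its inhibitor Keap1, 6 of the antioxidant genes that NRF2 is best known to activate (Nqo1, Gclc, Gclm, Srxn1, Txnrd1 and Hmox1) and the metallothioneins Mt1 and Mt2. They were taken by symbol from the deposited table of normalized read counts, and all 10 were found among its 24451 genes. Liver RNA was sequenced from 4 Brap LKO mice, which carry floxed Brap alleles and Cre driven by the Albumin promoter, and from 4 Brap F/F mice, which carry the same floxed alleles without Cre. BRAP is a RAS-binding ubiquitin ligase, and Albumin-Cre acts mainly in hepatocytes. Which other cells of the liver keep the floxed alleles uncut was not examined here. All mice were males of the strain labelled C57BL/6 (the floxed line was made in C57BL/6J, by the methods of the study), aged 18 wk and fasted for 6 h, and RNA came from frozen tissue of the left lobe. The comparison asks whether the oxidative and metal stress genes of the liver differ in expression when hepatocytes lose Brap.

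NRF2 is made continuously and is held at a low level by KEAP1, an adaptor that hands it to the CUL3 ubiquitin ligase. Oxidants and electrophiles modify cysteines of KEAP1, NRF2 then escapes degradation, enters the nucleus with a small MAF protein and activates genes that carry an antioxidant response element (ARE). Because this control acts on the protein, RNA of Nfe2l2 itself is a poor gauge of the pathway and RNA of its targets is the usual readout. Metallothioneins are small cysteine-rich proteins that bind zinc and copper. The liver raises their RNA through the zinc sensor MTF1, which binds metal response elements (MRE), and in response to glucocorticoids, fasting and inflammation.

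Gene counts totalled from 26280884 to 33313914 reads in a liver, and every member held at least 105 reads in every liver. The replicate number distinguishes mice of a group, and p-values set the difference between the groups against the spread between livers within them. Normalized counts of Brap itself ranged from 3641 to 4203 in Brap LKO and from 3994 to 4410.2 in Brap F/F. Cre removes only a small stretch of the Brap transcript, and since exons were not analysed singly here, these counts did not check the labels. The hepatocyte genes Alb, Apoa1, Ttr, Cps1 and Cyp3a11, the markers of the labelled tissue, were present in every liver and summed to between 1986608 and 2772022 normalized counts in Brap LKO and to between 2487919 and 3777690.2 in Brap F/F. Of these 5 genes 4 had a log2 fold change below 0, with a median of -0.33, and 0 passed the adjusted threshold (limma, edgeR or DESeq2), 0 with an unadjusted limma p-value under 0.05. The RNA is of whole tissue, in which fewer cells of a type and less RNA per cell cannot be told apart.

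For none of the 10 genes did the difference between the groups pass the test. Expression was compared as log2(normalized count + 1) with limma across the 15352 genes whose normalized counts averaged at least 5 (Benjamini-Hochberg adjustment, threshold 0.05). Of the 10 members 0 passed in either direction, against 0.769% of all tested genes (0.664% higher and 0.104% lower in Brap LKO), and 0 had an unadjusted p-value under 0.05, which 15.8% of all tested genes had. edgeR and DESeq2 on the recovered reads also called 0 members, where they called 0.795% and 4.07% of all genes. In 0 of the 10 did every liver of one group lie above every liver of the other, which held for 9.87% of all tested genes. The fitted log2 fold change (Brap LKO over Brap F/F) was above 0 for 4 members and below 0 for 6, with a median of -0.02. The median size without sign was 0.055. All tested genes had a median of -0.01 and a median size of 0.152. They reach down to a mean of 5, below every member, and these medians were not matched for level.

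**Figure D1:**
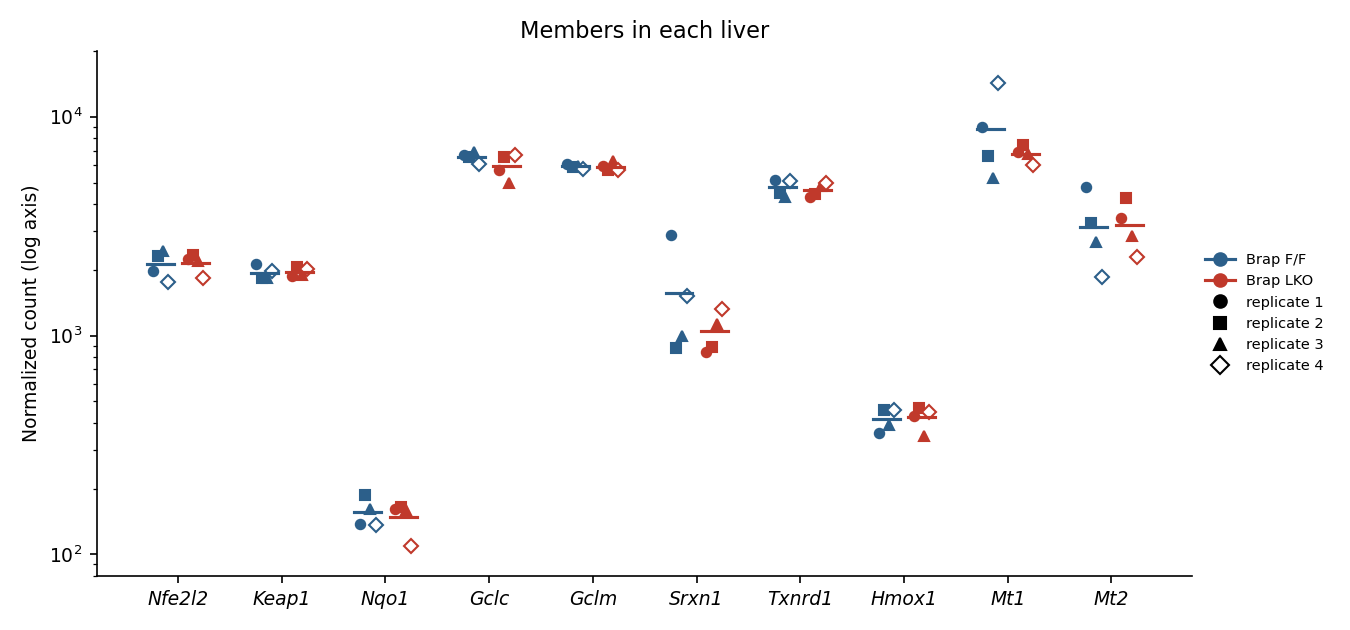
Normalized count (log axis) of each of the 10 genes in each liver, with Brap F/F in blue, Brap LKO in red, 1 symbol per replicate number and a bar at the group mean. The groups overlap for every gene, and the points that stand farthest from their own group are Srxn1 in Brap F/F replicate 1 (2868) and Mt1 in Brap F/F replicate 4 (14199).

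Positions of genes are those of the GENCODE annotation of mm10. The means of the factor and of its inhibitor lay within the spread of the livers in both groups. In the order of replicates 1 to 4, which is kept throughout, Nfe2l2 (ENSMUSG00000015839, chr2:75675513-75704641, minus strand) had normalized counts of 2238, 2330.2, 2191 and 1831 in the Brap LKO livers and of 1979, 2307, 2434 and 1761 in the Brap F/F livers. Replicate 4 was the lowest liver of each group, and the ranges of the groups covered each other almost wholly. Its fold (Brap LKO over Brap F/F) was 1.02 with a 95% confidence interval of 0.849 to 1.22 (limma, adjusted p = 0.936). Keap1 (ENSMUSG00000003308, chr9:21229730-21239361, minus strand) had normalized counts of 1863, 2062, 1888 and 2023 in the Brap LKO livers and of 2117, 1827, 1824 and 1981 in the Brap F/F livers. Its fold was 1.01 (interval 0.905 to 1.13, limma, adjusted p = 0.923), the narrowest interval of the members after that of Gclm. The antisense gene Gm16754 overlaps 10.9% of the exon bases of Keap1, and it held between 5 and 18 reads per liver where Keap1 held between 1735 and 2427.

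Gclc and Gclm encode the catalytic and the modifier subunit of glutamate-cysteine ligase, the enzyme that limits glutathione synthesis. Gclc (ENSMUSG00000032350, chr9:77754535-77794485, plus strand) had normalized counts of 5683, 6562, 4993 and 6647 in the Brap LKO livers and of 6701, 6512, 6895 and 6085 in the Brap F/F livers. Brap LKO replicates 1 and 3 lay below every Brap F/F liver, and replicates 2 and 4 lay within the Brap F/F range. The log2 fold change of Gclc was -0.14 (standard error 0.0998, limma, adjusted p = 0.514), with a two-sided exact permutation p of 0.229 over the 70 arrangements of the livers. No other member had a smaller adjusted p-value.

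Gclm (ENSMUSG00000028124, chr3:122245557-122270732, plus strand) was the steadiest member. It had normalized counts of 5945, 5717, 6240.2 and 5729 in the Brap LKO livers and of 6091, 5895, 5948 and 5771 in the Brap F/F livers, so that its highest liver was 1.09 times its lowest in the first group and 1.06 times in the second. Its standard deviation within groups (0.0477 on the log2 scale) was larger than that of only 2.11% of the 1088 tested genes whose mean level lay within 2-fold of its own. The fold was 0.996 with an interval of 0.907 to 1.09 (limma, adjusted p = 0.974). The catalytic subunit lay at the 50.7th percentile of the same measure among 1032 genes. Of the exon bases of Gclm, 4.71% overlap Gm17494 on the other strand, which held at most 3 reads in any liver, and 3.88% overlap the pseudogene Gm6061 on the same strand.

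Nqo1 (ENSMUSG00000003849, chr8:107388225-107403206, minus strand), a quinone reductase often used as the marker of NRF2 activity, was the least abundant of the targets per length of transcript. It had normalized counts of 161, 165, 159.8 and 109 in the Brap LKO livers and of 138, 187, 162 and 136 in the Brap F/F livers. Brap LKO replicate 4 was the lowest of the 8 livers, and the other 3 Brap LKO livers fell inside the Brap F/F range. The fold was 0.95, and its interval of 0.734 to 1.23 was wider than that of the glutathione ligase subunits (limma, adjusted p = 0.853).

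Txnrd1 (ENSMUSG00000020250, chr10:82833951-82897712, plus strand) encodes the cytosolic thioredoxin reductase, which returns thioredoxin to its reduced form at the cost of NADPH. It had normalized counts of 4299, 4430.2, 4823 and 4962 in the Brap LKO livers and of 5139.9, 4479.9, 4285 and 5096 in the Brap F/F livers. All 4 Brap LKO livers lay inside the range of the Brap F/F livers, and the fold was 0.976 (interval 0.856 to 1.11, limma, adjusted p = 0.861). Hmox1 (ENSMUSG00000005413, chr8:75093621-75100589, plus strand), heme oxygenase 1, degrades heme and in the liver is also made by Kupffer cells. Its normalized counts were 428, 469, 348 and 449 in the Brap LKO livers and 360.3, 458, 391 and 456 in the Brap F/F livers. Each group held livers near the lowest and near the highest value, with a fold of 1.02 (interval 0.843 to 1.23, limma, adjusted p = 0.941). The 8 macrophage markers examined summed to between 5391 and 9999 normalized counts in Brap LKO and to between 5807 and 7953 in Brap F/F. Of these markers 7 had a log2 fold change above 0 and 0 passed the threshold (limma), 1 with an unadjusted p-value under 0.05, which 15.8% of all tested genes had.

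**Figure D2:**
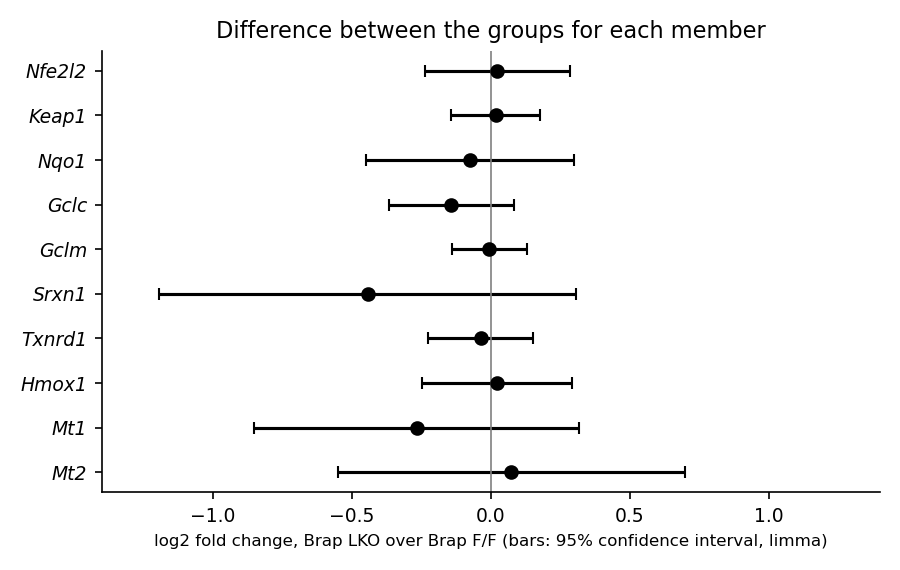
Log2 fold change (Brap LKO over Brap F/F, limma) of each gene with its 95% confidence interval from 4 livers per group. Every interval includes 0, and those of Srxn1, Mt1 and Mt2 are the widest of the 10.

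Srxn1, Mt1 and Mt2 varied most among the livers. Their standard deviations within groups lay at the 98.2nd, the 93.0th and the 96.1st percentile among tested genes of like level, while those of the other 7 members lay between the 2.11th and the 73.5th. From lowest to highest liver, all 3 spread more in Brap F/F (3.26-fold, 2.72-fold and 2.57-fold) than in Brap LKO (1.57-fold, 1.23-fold and 1.86-fold). The RefSeq promoter windows of these 3 genes (assembly GRCm38.p6, 250 bases before to 50 bases after the annotated start, read in the direction of the gene) are shown because their livers spread most and because Mt1 and Mt2 are neighbours on chromosome 8. Capitals mark matches on either strand to 4 motifs. These were an ARE core (TGACNNNGC), a longer element bound by MAF and NRF2 pairs (TGANTCAGC, which is also an ARE core when N is C) and the MRE core with G or with A (TGCGCNC and TGCACNC).
Mt1, chr8:94178839-94179138, plus strand: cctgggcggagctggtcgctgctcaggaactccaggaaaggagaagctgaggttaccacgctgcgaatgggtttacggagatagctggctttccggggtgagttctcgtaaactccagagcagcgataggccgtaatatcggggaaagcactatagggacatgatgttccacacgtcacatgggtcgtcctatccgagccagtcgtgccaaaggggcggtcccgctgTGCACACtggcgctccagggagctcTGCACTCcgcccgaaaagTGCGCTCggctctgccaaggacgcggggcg
Mt2, chr8:94172368-94172667, plus strand: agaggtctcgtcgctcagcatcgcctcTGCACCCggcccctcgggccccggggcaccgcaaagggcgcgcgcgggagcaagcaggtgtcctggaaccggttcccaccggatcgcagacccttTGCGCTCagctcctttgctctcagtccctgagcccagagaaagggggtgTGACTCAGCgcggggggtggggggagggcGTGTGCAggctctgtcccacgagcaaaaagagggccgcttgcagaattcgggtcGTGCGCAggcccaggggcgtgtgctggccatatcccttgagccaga
Srxn1, chr2:152105274-152105573, plus strand: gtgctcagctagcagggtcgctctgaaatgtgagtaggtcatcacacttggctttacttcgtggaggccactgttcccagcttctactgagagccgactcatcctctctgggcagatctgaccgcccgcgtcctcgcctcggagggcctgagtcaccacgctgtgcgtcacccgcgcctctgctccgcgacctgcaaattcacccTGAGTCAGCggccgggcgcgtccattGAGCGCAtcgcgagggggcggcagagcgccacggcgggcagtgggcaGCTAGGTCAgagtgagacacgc
Counting from 1 at the left end of each window, Srxn1 held TGAGTCAGC from base 206, a match to the longer element, GCTAGGTCA from base 279, the reverse complement of an ARE core, and GAGCGCA from base 232, the reverse complement of an MRE core. Mt2 held TGACTCAGC from base 172, which matches both the ARE core and the longer element, and 4 MRE cores. Mt1 held 3 MRE cores, at bases 228, 253 and 271, and no ARE core in this window. Bases outside the windows were not searched, so a motif absent here may lie nearby. Of all 32851 RefSeq mouse windows of this length, 12.4% held the ARE core, 1.19% the longer element, 15.4% the MRE core with G and 12.6% the MRE core with A. Windows were found for 8 of the 10 members, 10 windows in all, since Txnrd1 had more than 1. Counted by gene, 5 members held an ARE core in at least 1 window and 2, Srxn1 and Mt2, the longer element. The shares over all windows are per window, so the 2 kinds of count are not directly comparable. A match describes letters in the window and was not tested as a binding site.

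Srxn1 (ENSMUSG00000032802, chr2:152105516-152111376, plus strand), sulfiredoxin, repairs peroxiredoxins that hydrogen peroxide has over-oxidized. It had normalized counts of 844, 890.3, 1130.1 and 1326 in the Brap LKO livers and of 2868, 881, 998 and 1523 in the Brap F/F livers. A single liver, Brap F/F replicate 1, stood above the rest, and the other 3 Brap F/F livers overlapped the Brap LKO range. Its log2 fold change was -0.44 (standard error 0.334, limma, adjusted p = 0.540), and it was -0.10 without Brap F/F replicate 1. Srxn1 was 1 of only 2 genes, among 4016 with a mean of at least 1000 normalized counts, that exceeded 1.5 times the highest of the other 7 livers in Brap F/F replicate 1. The same liver was the highest of the 8 for 4 of the 10 members, namely Keap1, Srxn1, Txnrd1 and Mt2. No such excess was seen there for Nqo1 or Hmox1, for which it held 138 and 360.3 normalized counts, each at or below the median of its group.

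Mt1 (ENSMUSG00000031765, chr8:94179082-94180327, plus strand) had normalized counts of 6891, 7457, 6737 and 6042 in the Brap LKO livers and of 8956, 6596, 5226 and 14199 in the Brap F/F livers. Those of Brap LKO spanned 1.23-fold and lay inside the 2.72-fold range of the Brap F/F livers. Its log2 fold change was -0.27 (standard error 0.260, limma, adjusted p = 0.639), and it was 0.00087 without Brap F/F replicate 4. Mt2 (ENSMUSG00000031762, chr8:94172664-94173568, plus strand) had normalized counts of 3457, 4231, 2856 and 2275 in the Brap LKO livers and of 4762, 3267, 2683 and 1853 in the Brap F/F livers. Both the highest and the lowest of the 8 livers were Brap F/F, and the log2 fold change was 0.07 (standard error 0.278, limma, adjusted p = 0.917). The intervals for the fold were wide, from 0.554 to 1.25 for Mt1 and from 0.683 to 1.62 for Mt2, so a moderate change of either metallothionein was not detectable with these livers.

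The metallothioneins kept a ratio of counts between 1.76 and 2.66 in 7 livers and left it in 1. The ratio of Mt1 to Mt2 was 1.99, 1.76, 2.36 and 2.66 in the Brap LKO livers and 1.88, 2.02 and 1.95 in the first 3 Brap F/F livers. In Brap F/F replicate 4 it was 7.66, with 14471 reads on Mt1, the most of any liver, and 1888 reads on Mt2, the fewest of any liver. Mt1 thus stood high and Mt2 low in that liver. The antisense gene Gm45774 overlaps 73.5% of the exon bases of Mt2 and 45.5% of the 50-base stretches of the main Mt2 transcript lie in it in reverse, but it held only between 3 and 23 reads per liver and 15 in Brap F/F replicate 4. Mt1 and Mt2 shared 0 stretches of 50 bases in their main transcripts, which is the length of the reads. The use of strand in counting is not given in the sources used here, so reads of Mt2 and Gm45774 cannot be told apart with certainty. In the 4016 genes with a mean of at least 1000, Brap F/F replicate 4 exceeded 1.5 times the highest of the other livers for 8 genes, Mt1 among them, and fell below the lowest by the same factor for 14. These counts were 12 and 5 in Brap F/F replicate 2, 7 and 6 in Brap F/F replicate 3, and 6 and 9 in Brap LKO replicate 4. Each was at most 2 in the remaining livers.

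**Figure D3:**
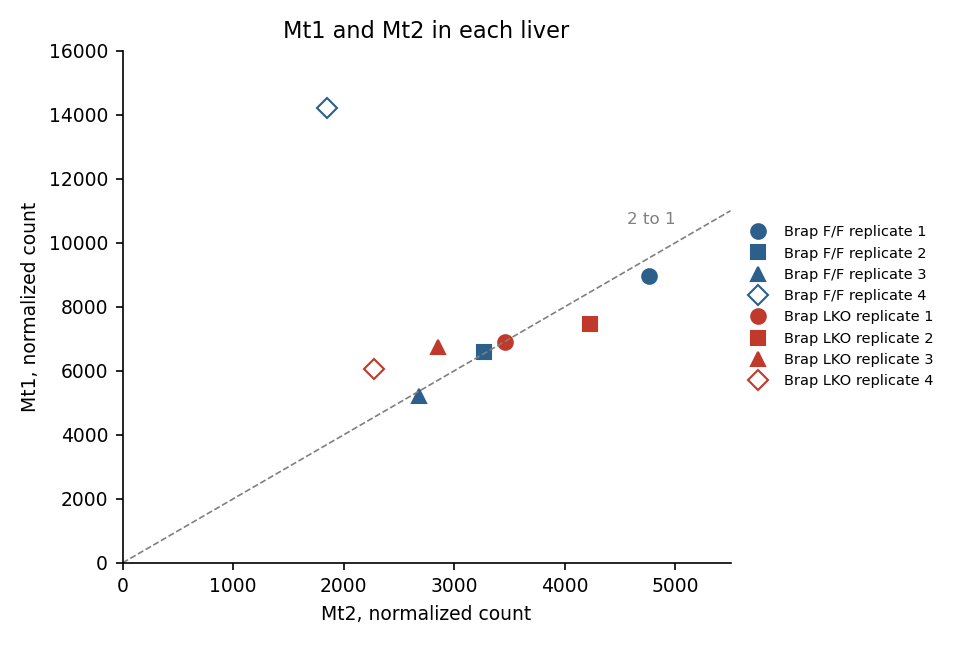
Normalized count of Mt1 against that of Mt2 in each of the 8 livers, with a dashed line where Mt1 is 2 times Mt2. Brap F/F replicate 4 lies far above the line with the highest Mt1 and the lowest Mt2, and the other 7 livers lie near it.

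The signals known to raise metallothionein RNA were examined beside these values. Of the 6 tested genes of metal handling 0 passed the threshold (limma, and 0 with edgeR). An unadjusted limma p-value under 0.05 was held by 3 of them and by 15.8% of all tested genes. The groups did not overlap for 2 of them and for 9.87% of all tested genes. Slc39a14, a zinc and iron importer of hepatocytes, had normalized counts of 10216, 9881, 10807 and 10563 in the Brap LKO livers and of 12517, 11041, 13555 and 12572 in the Brap F/F livers, and the groups did not overlap (log2 fold change -0.26, limma, adjusted p = 0.180). Slc30a1, a zinc exporter and a target of MTF1, had a log2 fold change of 0.19 (limma, adjusted p = 0.301) and its lowest normalized count, 1655, in Brap F/F replicate 4. The part of metal signals in the Mt1 and Mt2 values of that liver was not tested. Slc39a10, named after its values were seen, had a log2 fold change of -0.58 (limma, adjusted p = 0.0750), and DESeq2 on the recovered reads called it (adjusted p = 0.00976) together with Slc39a14 (adjusted p = 0.0418). DESeq2 called 4.07% of all tested genes. Mt3 held at most 1 read in any liver and was not tested, and Mt4 was not analysed here.

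The acute phase genes had their highest sums in the liver with the most Mt1 and in the liver with the most Srxn1. Their sums ranked the Brap F/F livers as Mt1 did, and did not so rank the Brap LKO livers. The 9 genes of that list summed to 172494 and 240058 normalized counts in Brap F/F replicates 1 and 4, to 93589.8 and 76616 in replicates 2 and 3, and to 81821, 112349.9, 103558 and 159462 in the Brap LKO livers. Brap LKO replicate 4, next by this sum after Brap F/F replicates 4 and 1, had less Mt1 (6042 normalized counts) than all livers but Brap F/F replicate 3, and Brap F/F replicate 4, with the highest sum, had the lowest Mt2 (1853). Hp, haptoglobin, made up most of the sum in every liver. It had 124676 and 165308 normalized counts in Brap F/F replicates 1 and 4 against 81940.0 and 66156 in replicates 2 and 3. Orm1, an acid glycoprotein of plasma, had 18985 and 29619 in replicates 1 and 4 against 7868 and 7478.2 in replicates 2 and 3. In the list 0 genes passed the threshold between the groups (limma, edgeR or DESeq2), 0 with an unadjusted limma p-value under 0.05, and the part of the acute phase genes in the values of Mt1 and Srxn1 was not tested. The 8 glucocorticoid-responsive genes had a median log2 fold change of -0.41 with 7 below 0 and 0 past the threshold (limma, edgeR or DESeq2). An unadjusted limma p-value under 0.05 was held by 2 of them and by 15.8% of all tested genes. Of the most abundant, Pck1, the gluconeogenic enzyme induced by fasting, had a log2 fold change of -0.44 (limma, adjusted p = 0.352) and Tat, a tyrosine aminotransferase, of -0.86 (limma, adjusted p = 0.277).

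Per length of transcript, Mt1 and Mt2 were the most abundant members and Nqo1 the least. Divided by the kilobases of the main annotated transcript, the normalized count of Mt1 was 12353 ± 1061 (SD, n = 4) in Brap LKO and 15927 ± 7194 (SD, n = 4) in Brap F/F, and that of Mt2 was 6271 ± 1638 and 6147 ± 2401 (SD, n = 4 each). The order went on with Gclc (1744 in Brap LKO and 1913 in Brap F/F), Txnrd1 (1392 and 1429), Gclm (1057 and 1060.3), Nfe2l2 (868 and 857), Keap1 (618 and 611), Srxn1 (373 and 557), Hmox1 (270.0 and 265) and Nqo1 (95.8 and 100.3). Neighbours in this order did not overlap over the 8 livers except Gclc with Txnrd1 and Keap1 with Srxn1.

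**Figure D4:**
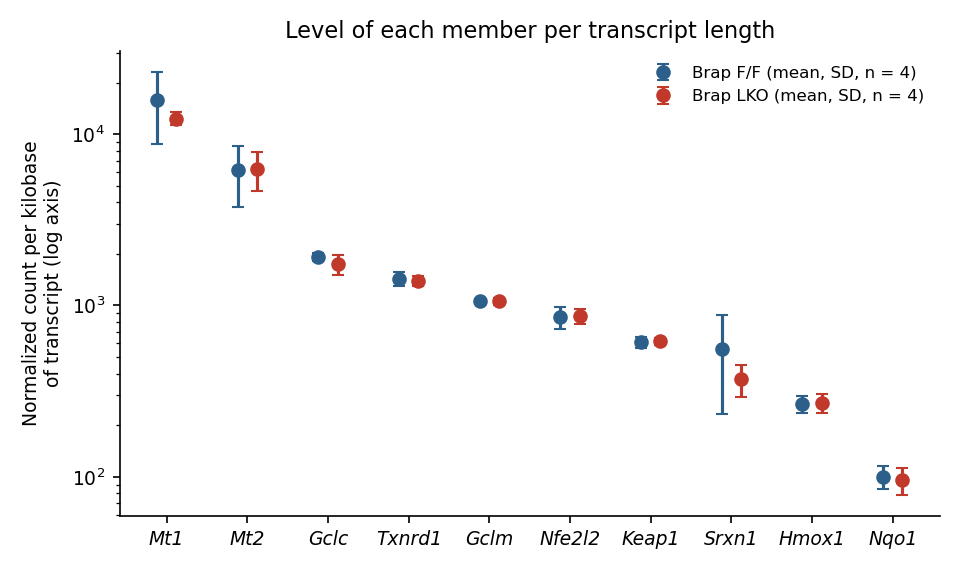
Normalized count per kilobase of the main transcript (log axis), mean and SD of 4 livers, with Brap F/F in blue and Brap LKO in red. The order is the same in both groups, from Mt1 (12353 and 15927 in Brap LKO and Brap F/F) to Nqo1 (95.8 and 100.3).

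The targets did not rise and fall as 1 block from liver to liver. Over the 8 livers, which differ in genotype and share 1 normalization, the 45 pairs of members had Pearson correlations of log2 values between -0.924 and 0.838. The lowest was that of Gclm with Hmox1 (Spearman rho -0.905) and the highest that of Srxn1 with Txnrd1. Gclm ranged only from 5717 to 6240.2 normalized counts over the 8 livers, so its correlations rest on small differences. Nfe2l2 had a negative correlation with Txnrd1 (r = -0.875) and, of its targets, the highest with Nqo1 (Spearman rho 0.881). Among the 10143 genes with a mean of at least 100, the patterns most like that of Mt1 were Sytl1 (r = 0.965), Rnaseh2a (r = 0.959) and Nrn1 (r = 0.959), and without Brap F/F replicate 4 these were 0.898, 0.879 and 0.840 over 7 livers. Nrn1, for instance, had 10170.1 normalized counts in Brap F/F replicate 4 and between 7088 and 8200.1 in the other livers. The patterns most like that of Hmox1 were Prr14 (r = 0.983), Zc3h12a (r = 0.954) and Prkcd (r = 0.953), with Prr14 between 1203 and 1486 normalized counts over the 8 livers.

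The wider redox network was described with 7 further lists of NRF2 partners, glutathione, thioredoxin, NADPH, detoxification, heme and iron, and other antioxidant genes. Of their 84 genes 79 were tested, and 1 was higher and 0 lower in Brap LKO (limma), where 0.769% of all tested genes passed. edgeR called the same single gene and DESeq2 called it with Abcc4. Of these genes 22 had a log2 fold change above 0 and 57 below 0, with a median of -0.09. The hepatocyte markers had a median of -0.33, and their part in the redox values was not tested. That balance around 0 depended on scaling. Quantile normalization gave 37 above and 42 below. A common total per liver, which moved the median of all genes to 0.15, gave 54 above and 25 below. Set against the median of all genes, the median of the redox genes was -0.080 with the deposited scaling and -0.078 with a common total. It was 0.0037 with quantile normalization.

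The gene that passed was Gpx3, the secreted glutathione peroxidase of plasma. It had normalized counts of 277, 255, 423 and 478 in the Brap LKO livers and of 98.1, 106, 135 and 157 in the Brap F/F livers. Every Brap LKO liver lay above every Brap F/F liver, with a log2 fold change of 1.499 (standard error 0.231, limma, adjusted p = 0.0298) and an exact two-sided permutation p of 0.0286, the lowest value 4 livers against 4 can give. The call was lost in 6 of the 8 fits that left out 1 liver, with adjusted p between 0.0632 and 0.0852 (limma), and was kept when the liver left out was replicate 2 of Brap LKO or replicate 4 of Brap F/F, while the log2 fold change stayed between 1.34 and 1.64 in all 8. The 5 markers of stellate cells and fibroblasts summed higher in the same livers, to between 1978 and 3532 normalized counts in Brap LKO and to between 1311 and 1941 in Brap F/F, with 4 of 5 above 0 and Pdgfrb past the threshold (log2 fold change 0.91, limma, adjusted p = 0.0494). Cholangiocyte markers were above 0 in 5 of 5 with 0 past the threshold (limma), 4 with an unadjusted p-value under 0.05, which 15.8% of all tested genes had. They summed to between 1343 and 2997 in Brap LKO and to between 716 and 1484 in Brap F/F. Their part in the Gpx3 difference was not tested. The intracellular enzyme Gpx1, the most abundant gene of the glutathione list, had between 33879 and 39531 normalized counts in Brap LKO and between 36397 and 41853 in Brap F/F (log2 fold change -0.09, limma, adjusted p = 0.695), and Oplah, which opens oxoproline, had a log2 fold change of -0.08 (limma, adjusted p = 0.719).

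Of the 13 thioredoxin and peroxiredoxin genes 0 passed the threshold (limma; edgeR and DESeq2 also 0), and 12 had a log2 fold change below 0 with a median of -0.14. In 4 of the 13 the groups did not overlap and the same number had an unadjusted p-value under 0.05, where these shares over all tested genes were 9.87% and 15.8%. Prdx1, the cytosolic peroxiredoxin, had normalized counts of 7807, 9091, 8774 and 9394 in the Brap LKO livers and of 10751, 9551, 9462 and 10806 in the Brap F/F livers. All livers of Brap LKO lay below those of Brap F/F, but the difference (log2 fold change -0.21) failed the adjusted threshold (limma, adjusted p = 0.282). Prdx6 had a log2 fold change of -0.06 (limma, adjusted p = 0.840). With a common total per liver 7 of the 13 genes were above 0, and with quantile normalization 4. Set against the median of all genes, the list median was -0.13 with the deposited scaling and -0.13 with a common total. It was -0.064 with quantile normalization.

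Among the partners of NRF2, 0 of 15 tested genes passed (limma), 2 with an unadjusted p-value under 0.05, which 15.8% of all tested genes had. Sqstm1, the autophagy adaptor p62 that binds KEAP1 and is itself an NRF2 target, had a log2 fold change of 0.12 (limma, adjusted p = 0.512), and Nfe2l1, a factor related to NRF2, of -0.21 (limma, adjusted p = 0.287). Of 6 NADPH enzymes 0 passed and 0 had an unadjusted p-value under 0.05, with Idh1 at -0.23 (limma, adjusted p = 0.323) and Tkt at -0.27 (limma, adjusted p = 0.365). Of 22 tested genes of detoxification and transport 0 passed, 5 with an unadjusted p-value under 0.05. Abcc2, the canalicular export pump for glutathione conjugates, had a log2 fold change of -0.10 (limma, adjusted p = 0.697).

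Gstp1, a glutathione transferase with closely similar paralogs whose reads the counting may split, had normalized counts of 24679, 25778, 27058 and 27839 in the Brap LKO livers and of 20876, 15707, 10139 and 45510.0 in the Brap F/F livers. Its highest liver was Brap F/F replicate 4, the liver with the highest Mt1. The lowest was Brap F/F replicate 3, the liver with the lowest Mt1. Within Brap LKO, however, replicate 4 had the highest Gstp1 and the lowest Mt1. The log2 fold change of Gstp1 was 0.42 (limma, adjusted p = 0.609). Abcc4, an efflux pump of the sinusoidal membrane named after its values were seen, had, as normalized counts, 121, 125, 129 and 140.4 in the Brap LKO livers and 55.9, 83.4, 107 and 57.9 in the Brap F/F livers. Its groups did not overlap (log2 fold change 0.80, limma, adjusted p = 0.111), and DESeq2 on the recovered reads called it (adjusted p = 0.0209).

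Of 8 genes of heme and iron 0 passed (limma), 2 with an unadjusted p-value under 0.05, which 15.8% of all tested genes had. Fth1, the ferritin heavy chain, had between 35773 and 38593 normalized counts in Brap LKO and between 39213 and 49936 in Brap F/F, a log2 fold change of -0.28 that did not pass (limma, adjusted p = 0.286). Alas1, which starts heme synthesis, had a log2 fold change of -0.23 (limma, adjusted p = 0.782). Of 6 other antioxidant enzymes 0 passed (limma), 2 with an unadjusted p-value under 0.05, and catalase, Cat, had a log2 fold change of -0.14 (limma, adjusted p = 0.697) and Sod1, the cytosolic superoxide dismutase, of -0.29 (limma, adjusted p = 0.262).

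**Figure D5:**
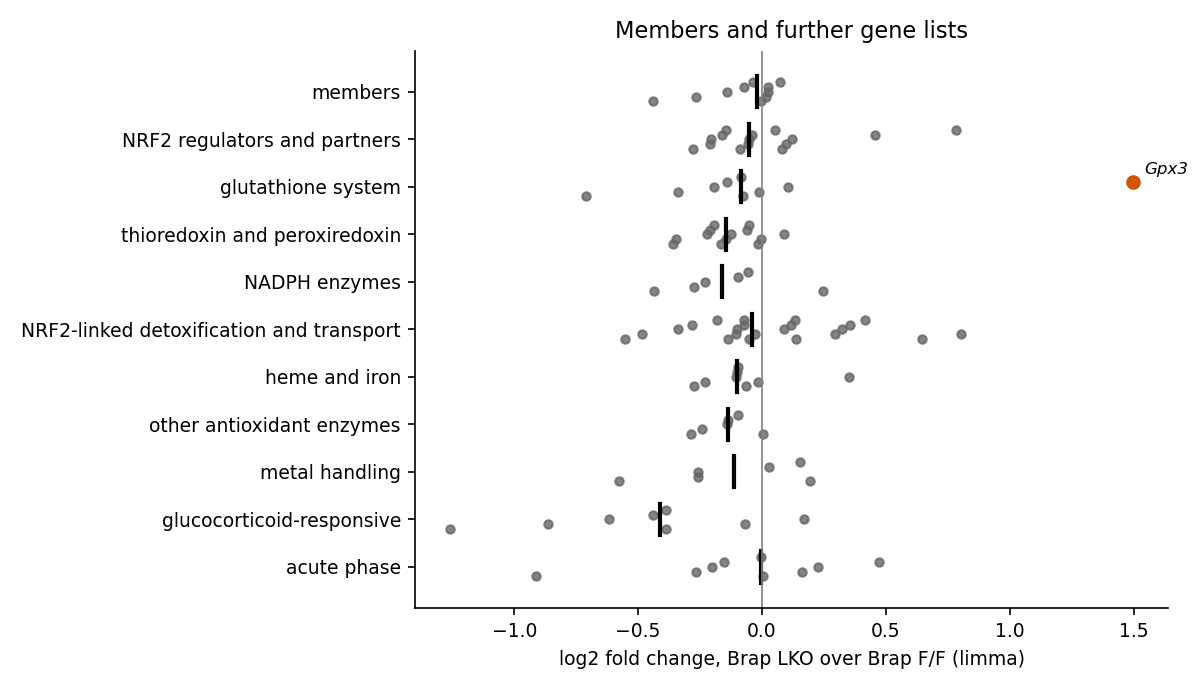
Log2 fold change (Brap LKO over Brap F/F, limma) of each tested gene, with 1 line per gene list, a vertical bar at the median of the list and the gene past the threshold in orange. The members center at -0.02, the other lists between -0.41 and -0.01, and Gpx3 (1.499) is the only gene of these lists past the threshold.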

How the data were processed

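The deposited signal is a normalized count, for which the authors scaled the reads on a gene by a size factor per liver with DESeq2. Per the labels and the submitters' processing notes, the library kit was NuGEN's Universal Plus mRNA-Seq, and reads were checked with FastQC and aligned to mm10 with STAR 2.6.0c. The counting tool, annotation release and use of strand are not given in the sources used here. All values (100%, tolerance 0.001 of a read) were whole multiples of the value of 1 read, so reads were recovered by division, and no molecular tags that would separate copies are mentioned. The authors' own DESeq2 comparison (fold changes, standard errors and p-values) was not used.

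Groups were taken from the deposited labels, 4 livers each, and compared by genotype with limma 3.58.1 (R 4.3.3) on log2(normalized count + 1), as a linear fit with trended moderation of the variances, two-sided and without covariates. On this scale, fold changes of weakly expressed genes come out too small. Beside it, two-sided exact permutation tests were run over the 70 arrangements of the livers (smallest p 0.0286). As alternatives, the recovered reads were tested with edgeR 4.0.16 (quasi-likelihood) and DESeq2 1.42.0. Further alternatives were pseudocounts of 0.5 and 5, a minimum mean of 20 or none, quantile normalization, a common total per liver, TMM factors, moderation without trend or with robust estimates, the replicate number as a block, the series of animal numbers in the labels as a covariate, a threshold of 0.1 and leaving out each liver in turn. The scripts were tested on simulated data. Positions, transcripts and overlaps came from the GENCODE annotation of mm10, in which 24430 genes of the table were found. Promoter windows came from RefSeq. Python 3.11.15 with pandas 2.3.3, scipy 1.17.1 and matplotlib 3.10.9 was used for the rest.

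The members and the gene lists were chosen with earlier results of these data known. Genes named are all members and Brap, of each further list those past the threshold and the 2 with the highest mean, and for Mt1 and Hmox1 the 3 genes with a mean of at least 100 and the highest correlation. Others are named where a count is explained, and were chosen after their values were seen.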

Additional observations from a re-analysis of the deposited data

Results flagged for a closer look

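In 4 cases among 72 groups of 4 livers examined, 1 liver stood apart from the other 3 of its group by more than the critical value of Dixon's test, where chance gives about 1 group in 20, or 3.6 groups. The ratio of Mt1 to Mt2 in Brap F/F replicate 4 was 7.66, and the other 3 Brap F/F livers had at most 2.02. The normalized count of Nqo1 in Brap LKO replicate 4 was 109, and the other 3 Brap LKO livers had at least 159.8. Nfe2l1 had 4206 normalized counts in Brap LKO replicate 1, and the other 3 livers of the group had at least 4665. Tkt had 4416 normalized counts in Brap LKO replicate 3, and the other 3 livers of the group had at most 4065.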

How the results depend on the processing

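None of the 10 members passed the threshold in any of 21 alternative fits (limma, edgeR and DESeq2), and of these 210 fits 1 had an unadjusted p-value under 0.05 (Gclm with a common total per liver, unadjusted p = 0.0425, adjusted p = 0.199, limma). Signs of values so near 0 were not stable, and the cause was not tested. The log2 fold change changed sign with the animal series as a covariate for Nfe2l2 (-0.021), Keap1 (-0.010) and Mt2 (-0.31), with a common total per liver for Nqo1 (0.083), Gclc (0.016), Gclm (0.15) and Txnrd1 (0.12), with quantile normalization for Gclm (0.11) and Txnrd1 (0.075), and for Gclm with TMM factors (0.0084) and edgeR (0.0089). Leaving out 1 liver gave -0.061 to 0.099 for Nfe2l2, -0.011 to 0.061 for Keap1, -0.13 to 0.067 for Nqo1, -0.20 to -0.058 for Gclc, -0.032 to 0.010 for Gclm, -0.66 to -0.097 for Srxn1, -0.083 to 0.0040 for Txnrd1, -0.043 to 0.11 for Hmox1, -0.48 to 0.00087 for Mt1 and -0.15 to 0.30 for Mt2. The end of the range nearest 0 came without Brap F/F replicate 1 for Srxn1 and without Brap F/F replicate 4 for Mt1, and Mt2 turned below 0 without replicate 2 of Brap LKO (-0.072) or replicate 4 of Brap F/F (-0.15).

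Counts of called genes moved more. Over all genes 102 were higher and 16 lower. The higher genes numbered 62 with quantile normalization, 459 with a common total, 455 with DESeq2, 283 at an adjusted p under 0.1 and 11 to 178 without 1 liver, and the lower genes 9 with a minimum mean of 20, 170 with DESeq2, 64 at 0.1 and 4 to 54 without 1 liver. The lowest number of higher genes came without Brap LKO replicate 1 and the highest without Brap F/F replicate 4. The glutathione list had 0 to 1 higher genes without 1 liver, detoxification 1 higher gene with a common total or DESeq2, and metal handling 1 lower gene with quantile normalization or at 0.1 and 2 with DESeq2.

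With the replicate number as a block 80 genes were higher and 15 lower, 0 members passed, and the fitted values did not move (Srxn1 -0.44, limma, adjusted p = 0.491). Deviations of livers with the same number correlated between -0.129 and 0.292. Replicates 3 and 4 of both groups correlated best with their own number, and replicate 1 of neither group did. Such correlations cannot decide whether the numbers pair mice, and no pairing was assumed outside this fit. Of the animal numbers in the labels, 1 Brap F/F liver falls in the lower series with 3 of Brap LKO, and the reverse holds for the higher, so the covariate fit, which compares the groups within series, rests on a single liver of one group in each and gave 132 higher and 13 lower genes with 0 members past the threshold.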
